A study of Mus musculus with 18 samples.

Results

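The CCN proteins and the genes of the YAP pathway were followed through 18 RNA-seq libraries of mouse cells. The 10 genes were 3 CCN genes (Ctgf, Cyr61 and Nov), the thrombospondin gene Thbs1, and Ankrd1, Amotl1, Amotl2, Lats2, Yap1 and Wwtr1. They were taken by their symbols, and all 10 were found among the 15288 genes of the deposited table. The list was selected on earlier results of these data, in which Ctgf stood among the largest decreases with siCYP1B1 in vehicle. Values in that comparison are therefore a description, with no p given for any of the 10 genes. Intervals that rest on that comparison, or on vehicle libraries for Ctgf, make no allowance for the selection. All 10 averaged at least 1 CPM (the deposited unit, the read count scaled to library depth) and were tested with the 11835 genes above that level.

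The cells are labelled as pulmonary microvascular endothelial cells of the mouse, while the series title names smooth muscle cells. They received siRNA to CYP1B1, which is a cytochrome P450 enzyme acting on estradiol, or scrambled siRNA, and 24 hours after transfection were given 1 uM 16aOHE, 1 uM E2 or vehicle for 24 hours in 5% serum. The 6 groups of 3 libraries were siCYP1B1 with 16aOHE, siCYP1B1 with E2, siCYP1B1 with vehicle, scrambled with 16aOHE, scrambled with E2 and scrambled with vehicle. Whether the 3 libraries of each group are separate cultures is not stated. The p-values therefore cover the spread between these libraries alone, and that spread may be technical. No group went without siRNA or transfection. E2 is estradiol, and 16aOHE commonly stands for a hydroxylated estrone, which carries a hydroxyl group that estradiol lacks and has a ketone where estradiol has a hydroxyl group.

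YAP (gene Yap1) and TAZ (gene Wwtr1) are co-activators that enter the nucleus and bind TEAD factors on DNA when cells are stretched, spread or growing. The Hippo kinases, with Lats2 as the last kinase of the cascade, phosphorylate them and keep them in the cytoplasm, and angiomotin-like proteins such as those of Amotl1 and Amotl2 bind them at junctions. Ctgf, Cyr61 and Ankrd1 are the usual target genes used to read YAP and TAZ activity, and Amotl2 and Lats2 are targets that feed back on the pathway. CCN proteins and thrombospondin 1 are secreted matricellular proteins that bind integrins. In vessels they are known for effects on endothelial sprouting, matrix deposition and, for thrombospondin 1, activation of latent TGF-beta.

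Libraries held an estimated 14066134 to 38474798 assigned reads, the shallowest being siCYP1B1 with 16aOHE replicate 1 and the deepest scrambled with 16aOHE replicate 2. The targeted gene Cyp1b1 was measured at 88.7 to 91.5 CPM with siCYP1B1 and at 105 to 108 CPM with scrambled siRNA in 16aOHE. It was at 100.4 to 104 against 117 to 119 CPM in E2, and at 80.8 to 82.2 against 89.1 to 96.1 CPM in vehicle. The 2 siRNA classes thus did not overlap in any arm, and the reduction was small. The defining endothelial markers Pecam1 and Vwf averaged 0.0482 and 0.0306 CPM, whereas Cd34 averaged 107 CPM. The mesothelial markers Msln and Upk3b averaged 1521 and 825 CPM, whereas the mesothelial markers Krt8 and Krt18 averaged 0.522 and 3.87 CPM. The smooth muscle marker Myh11 averaged 0.0765 CPM, whereas Smtn and Acta2 averaged 90.1 and 20.5 CPM. The fibroblast markers Col3a1 and Col1a1 averaged 2488 and 1946 CPM, whereas Lum averaged 0.0428 CPM.

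Between genes, levels can be compared only per length. In CPM per kb of exon sequence, Amotl2 was the most abundant of the 10 genes, with a mean of 121 over 18 libraries, followed by Cyr61 (89.4), Amotl1 (55.2) and Yap1 (52.1). Ctgf stood at 40.1, Wwtr1 at 36.3, Ankrd1 at 31.1, Lats2 at 23.9 and Thbs1 at 14.6 CPM per kb. Nov was by far the least abundant, at 2.25 CPM per kb, and its lowest library held about 70 reads. The ranges over libraries of neighbours in this order overlapped, except between Cyr61 and Amotl1, between Lats2 and Thbs1 and between Thbs1 and Nov. Ctgf ran from 23.2 to 65.4 CPM per kb and Yap1 only from 50.3 to 55.4. Among group means, the highest was 2.35 times the lowest for Ctgf, 1.74 times for Cyr61, 1.77 times for Nov, 1.67 times for Thbs1 and 1.04 times for Yap1.

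**Figure D1:**
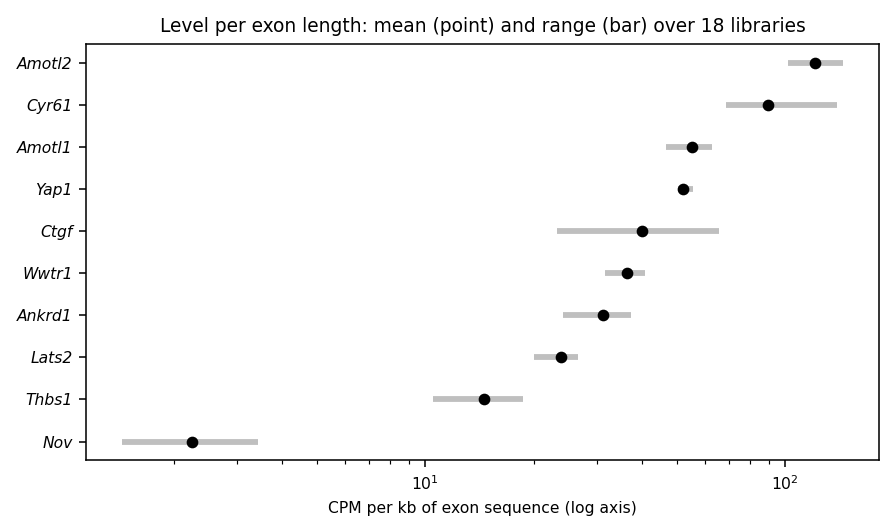
Level of each gene in CPM per kb of exon sequence on a log axis, with the mean over 18 libraries as a point and the range over libraries as a bar. Amotl2 (121) and Cyr61 (89.4) lead, Nov (2.25) is lowest, and the Ctgf bar is wide where the Yap1 bar is narrow.

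Promoter windows from RefSeq (GRCm38.p6, from 250 bases before to 50 bases after the annotated start) were matched for 7 of the 10 genes, Cyr61 by its current name Ccn1. Ctgf, Nov and Thbs1 had no window in the promoter set used, so the promoter search does not cover them. The windows were searched on both strands for the TEAD element GGAATG, which reads CATTCC on the opposite strand. The windows of Cyr61, Ankrd1 and Amotl2, 3 genes that were higher with 16aOHE than with E2 below, are shown with those of Amotl1 and Yap1, which were not. Each runs 5′ to 3′ on the gene's strand, and capitals mark the TEAD element. The Cyr61 window is chr3:145649936-145650235 (minus strand), that of Ankrd1 chr19:36119795-36120094 (minus strand) and that of Amotl2 chr9:102717554-102717853 (plus strand). The Amotl1 window is chr9:14614951-14615250 (minus strand) and the Yap1 window chr9:8004547-8004846 (minus strand). The windows of Amotl1, Amotl2 and Yap1 are at annotated starts inside the gene, and those of Cyr61 and Ankrd1 at its 5′ end.
Cyr61: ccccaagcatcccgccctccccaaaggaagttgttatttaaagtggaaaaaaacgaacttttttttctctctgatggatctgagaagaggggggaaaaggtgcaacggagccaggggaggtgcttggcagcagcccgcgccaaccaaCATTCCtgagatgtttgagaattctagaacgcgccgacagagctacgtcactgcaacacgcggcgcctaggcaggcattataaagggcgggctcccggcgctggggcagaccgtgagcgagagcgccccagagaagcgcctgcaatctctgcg
Ankrd1: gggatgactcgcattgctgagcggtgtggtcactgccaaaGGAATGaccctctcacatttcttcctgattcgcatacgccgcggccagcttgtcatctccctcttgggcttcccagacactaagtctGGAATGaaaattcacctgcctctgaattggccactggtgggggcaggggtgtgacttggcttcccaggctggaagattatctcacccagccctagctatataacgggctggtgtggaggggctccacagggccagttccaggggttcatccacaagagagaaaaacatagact
Amotl2: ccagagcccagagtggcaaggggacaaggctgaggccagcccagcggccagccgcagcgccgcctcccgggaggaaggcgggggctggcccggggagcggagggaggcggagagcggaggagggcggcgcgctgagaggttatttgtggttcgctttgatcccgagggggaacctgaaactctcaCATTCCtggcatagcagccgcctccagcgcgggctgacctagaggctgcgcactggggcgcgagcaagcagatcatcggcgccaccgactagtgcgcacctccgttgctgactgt
Amotl1: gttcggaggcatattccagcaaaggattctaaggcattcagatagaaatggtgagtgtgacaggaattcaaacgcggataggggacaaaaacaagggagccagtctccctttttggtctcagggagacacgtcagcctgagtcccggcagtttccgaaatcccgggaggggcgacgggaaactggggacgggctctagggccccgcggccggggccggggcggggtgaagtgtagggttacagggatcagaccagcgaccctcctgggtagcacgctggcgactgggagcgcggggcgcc
Yap1: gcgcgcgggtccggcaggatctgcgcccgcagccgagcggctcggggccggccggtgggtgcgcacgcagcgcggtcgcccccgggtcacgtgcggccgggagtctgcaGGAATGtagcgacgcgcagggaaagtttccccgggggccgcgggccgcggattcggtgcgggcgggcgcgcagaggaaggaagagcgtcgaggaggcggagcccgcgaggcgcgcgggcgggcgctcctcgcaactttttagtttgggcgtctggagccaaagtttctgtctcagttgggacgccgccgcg

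The element began 103 bases before the start in Cyr61, 210 and 123 bases before it in Ankrd1, and 65 bases before it in Amotl2. In Yap1 it began 141 bases before the start, and in Wwtr1 136 and 170 bases before the starts of its 2 windows. In Lats2 it lay just downstream of the start of 1 of 2 windows, and Amotl1 held none. Genes with the element in at least 1 window were thus 6 of 7, against 16.6% of the 27025 genes with such windows. By window, 14.7% of all 32851 promoter windows of the same length held it. The AP-1 element TGANTCA (in 7.81% of all windows), the CArG box (1.63%) and the full estrogen response element (0.07%) were found in no window of these 7 genes. Yap1, which passed no test below, holds the TEAD element as do Cyr61 and Ankrd1. A match describes letters and not binding.

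siCYP1B1 was compared with scrambled siRNA in each arm. Ctgf was lower with siCYP1B1 in 16aOHE and in E2, Thbs1, Amotl2, Lats2 and Wwtr1 by smaller amounts in both, and Cyr61 in 16aOHE. Yap1, Amotl1 and Nov did not pass the test in E2 or 16aOHE, nor did Ankrd1. Each call is an adjusted p under 0.05. Among all tested genes, the libraries of the siRNA classes did not overlap for 33.4% in 16aOHE, 36.6% in E2 and 37% in vehicle. Tests used limma on log2(CPM + 1), and adjusted p-values are over all 11835 genes.

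Ctgf (current name Ccn2, chr10:24595442-24598683, plus strand, GRCm38.p6 of RefSeq) encodes connective tissue growth factor, a matricellular protein tied to matrix deposition. In 16aOHE it was at 102, 112 and 99.8 CPM with siCYP1B1, against 181, 135 and 178 CPM with scrambled siRNA. The classes did not overlap, and the scrambled library at 135 CPM stood below the other two. The log2 difference was -0.64 (SE 0.0968, adjusted p = 8.26e-05). In E2 it was at 76.6, 69.6 and 64.5 CPM with siCYP1B1, against 112, 88.0 and 98.3 CPM with scrambled siRNA. The log2 difference there was -0.49 (SE 0.0968, adjusted p = 0.001), again with no overlap. In vehicle, the comparison behind the selection, Ctgf was at 82.1, 80.9 and 76.2 CPM with siCYP1B1, against 131, 154 and 159 CPM with scrambled siRNA. This is a log2 difference of -0.88, given as a description.

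Cyr61 (Ccn1, chr3:145646971-145649985, minus strand), an angiogenic CCN protein, was at 186, 175 and 175 CPM with siCYP1B1 in 16aOHE, against 279.9, 238 and 254 CPM with scrambled siRNA. Every siCYP1B1 library lay below every scrambled one, and the log2 difference was -0.52 (SE 0.0593, adjusted p = 2.61e-06). In E2 it was at 163, 143 and 139 CPM with siCYP1B1, against 174, 157 and 157 CPM with scrambled siRNA. There the classes overlapped through siCYP1B1 replicate 1 at 163 CPM, and the difference of -0.14 did not pass (adjusted p = 0.11). Without that library it was -0.21 (adjusted p = 0.0187). In vehicle it was at 156, 149 and 145 CPM with siCYP1B1, against 190.0, 179 and 189 CPM with scrambled siRNA, which do not overlap.

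Nov (Ccn3, chr15:54745910-54753762, plus strand) is a CCN protein that in several settings opposes Ctgf. It averaged 5.40 ± 0.634 CPM with siCYP1B1 and 6.19 ± 1.19 CPM with scrambled siRNA in 16aOHE (SD, n = 3 each), and the libraries overlapped. The log2 differences of -0.16 in 16aOHE (95% interval -0.45 to 0.13) and -0.11 in E2 (-0.40 to 0.18) did not pass (adjusted p = 0.466 and 0.629). Nov had the fewest reads of the 10 genes, 70 to 291 per library.

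Thbs1 (chr2:118111876-118127133, plus strand), an inhibitor of angiogenesis, was at 61.7, 63.6 and 67.7 CPM with siCYP1B1 in E2, against 80.3, 91.3 and 77.9 CPM with scrambled siRNA. The libraries did not overlap, and the log2 difference was -0.36 (SE 0.0628, adjusted p = 0.000284). In 16aOHE it was at 91.1, 94.6 and 95.0 CPM with siCYP1B1, against 105, 108 and 109 CPM with scrambled siRNA. The libraries were again apart, with a difference of -0.20 (adjusted p = 0.0327). That call was lost without any 1 of the 6 libraries (adjusted p from 0.0576 to 0.0939) and with a variance prior in limma that ignores the expression level (untrended prior, 0.0671). In vehicle the means were 70.9 ± 7.42 CPM with siCYP1B1 and 92.0 ± 4.41 CPM with scrambled siRNA (SD, n = 3 each).

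**Figure D2:**
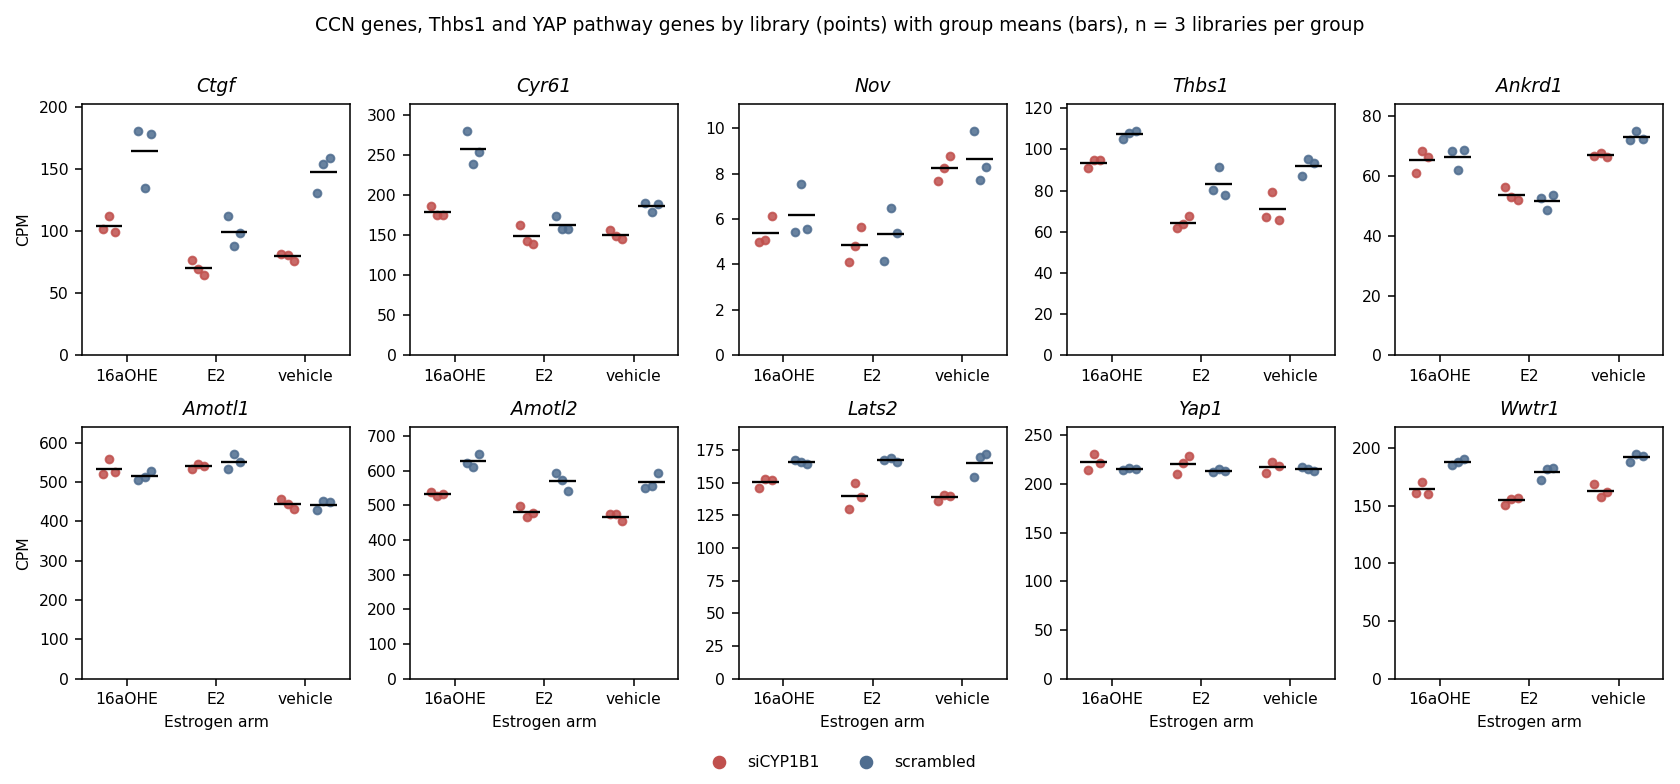
CPM of the 10 genes in every library (points) with group means (bars), by estrogen arm, siCYP1B1 in red and scrambled siRNA in blue, 3 libraries per group, axes from 0. Ctgf in 16aOHE sits at 99.8 to 112 CPM with siCYP1B1 and at 135 to 181 CPM with scrambled siRNA, while Yap1 stays between 210.0 and 231 CPM throughout.

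Of the co-activators, Wwtr1 passed and Yap1 did not, and the difference between the genes was not tested. Wwtr1 (TAZ, chr3:57455644-57575910, minus strand) was at 161, 171 and 160.4 CPM with siCYP1B1 in 16aOHE, against 185, 188 and 191 CPM with scrambled siRNA. It was at 151, 156 and 157 against 172, 182 and 183 CPM in E2. The libraries were apart in both arms, and the log2 differences were -0.20 and -0.21 (adjusted p = 0.000584 and 0.000291). Yap1 (chr9:7931999-8004638, minus strand) was at 214, 231 and 222 CPM with siCYP1B1 in 16aOHE, against 214, 217 and 215 CPM with scrambled siRNA. Its differences were 0.05 (95% interval -0.03 to 0.12, adjusted p = 0.38) in 16aOHE and 0.04 (-0.03 to 0.12, adjusted p = 0.392) in E2. In both arms the interval leaves out a decrease of the size seen for Wwtr1.

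Of the scaffolds, Amotl2 passed and Amotl1 did not. Amotl2 (chr9:102717091-102733418, plus strand) was at 537, 526 and 533 CPM with siCYP1B1 in 16aOHE, against 621, 610.3 and 648 CPM with scrambled siRNA. The log2 differences were -0.23 in 16aOHE (adjusted p = 0.000193) and -0.24 in E2 (adjusted p = 0.000117), with no overlap in either arm. Amotl1 (chr9:14541966-14662974, minus strand) overlapped in every arm, with differences of 0.05 in 16aOHE (adjusted p = 0.349) and -0.03 in E2 (adjusted p = 0.591). The kinase gene Lats2 (chr14:57689662-57746212, minus strand) was at 129.9, 150.0 and 139 CPM with siCYP1B1 in E2, against 167, 169 and 166 CPM with scrambled siRNA. Its libraries were apart, and it fell by 0.26 on the log2 scale (adjusted p = 0.000279). In 16aOHE the difference was -0.14 (adjusted p = 0.0341), a call lost without any 1 of the 6 libraries (adjusted p from 0.0508 to 0.103) and with an untrended prior (0.0677). Ankrd1 (chr19:36111965-36119844, minus strand), an ankyrin-repeat nuclear protein, differed by -0.02 in 16aOHE (adjusted p = 0.823) and 0.06 in E2 (adjusted p = 0.469), with overlapping libraries.

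Counted together, 6 of the 10 genes were lower and none higher with siCYP1B1 in 16aOHE, where 19.7% of all tested genes passed in either direction. That count was 4 when any 1 of the 6 libraries was left out, and 4 with an untrended prior. Thbs1 and Lats2 then missed the threshold. In E2, 5 were lower and none higher, where 21.2% of all genes passed. The median log2 difference of the 10 genes was -0.18 in 16aOHE and -0.17 in E2, against 0.01 and 0.03 over all genes. No genes of the list are counted in vehicle, where 20.6% of all genes passed, since that comparison was used for the selection. The log2 differences there were -0.38 for Thbs1, -0.31 for Cyr61, -0.27 for Amotl2, -0.25 for Lats2, -0.23 for Wwtr1, -0.13 for Ankrd1, -0.05 for Nov, 0.02 for Yap1 and 0.01 for Amotl1. The means in the 3 siRNA comparisons share no library, but the spread of each gene was estimated from all 18 libraries.

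**Figure D3:**
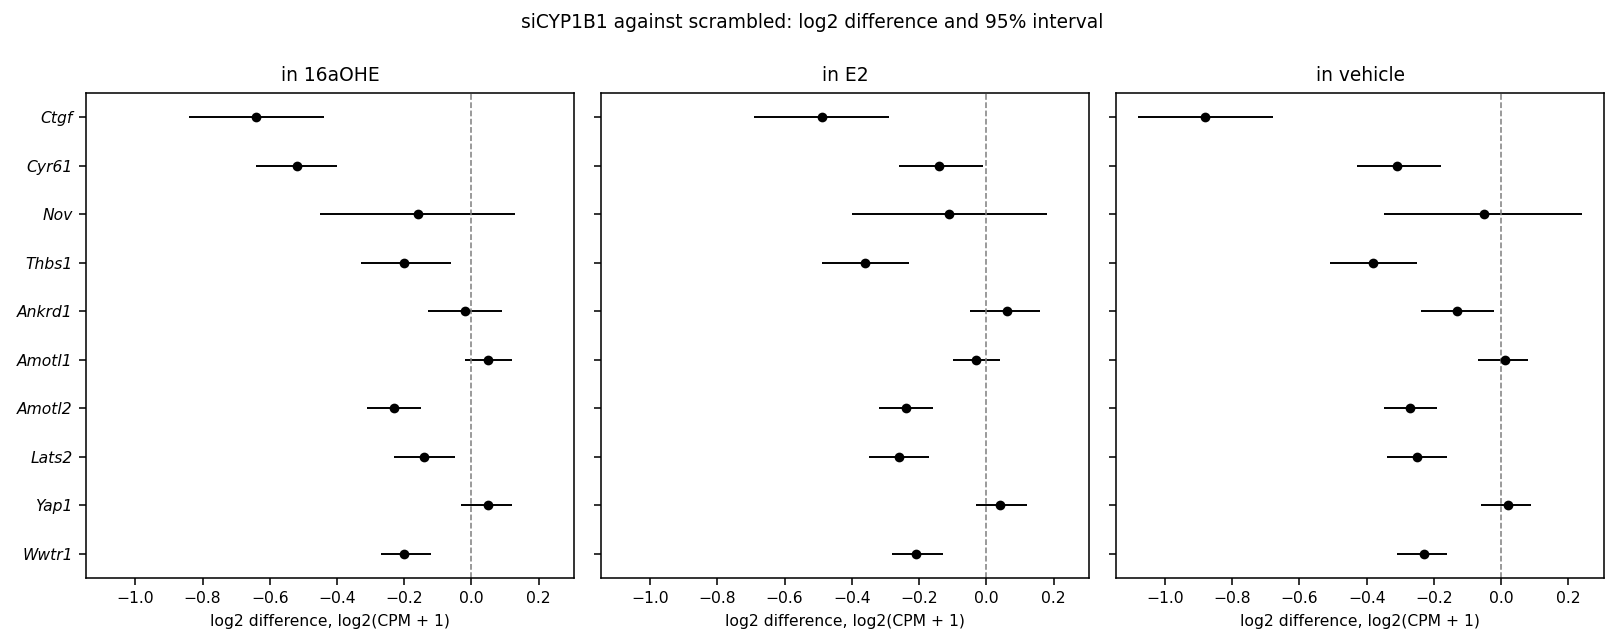
Log2 difference of siCYP1B1 against scrambled siRNA for each gene in 16aOHE, E2 and vehicle, on the log2(CPM + 1) scale with 95% intervals from limma (n = 3 libraries per group). Ctgf lies at -0.64, -0.49 and -0.88, and the Yap1 intervals cross 0 in 16aOHE and E2. The vehicle panel is a description, and its intervals make no allowance for the selection.

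The genes around them were counted from lists of their receptors and of the pathway. Of the 11 tested receptors of CCN proteins and thrombospondin 1, 7 were lower and none higher in 16aOHE, where 9.31% of all genes were lower, and 7 were lower and none higher in E2, where 9.80% were lower. Itgb3, an integrin subunit, was at -0.38 in 16aOHE (adjusted p = 0.000494) and -0.52 in E2 (adjusted p = 9.93e-06), and the co-receptor Sdc4 at -0.24 and -0.30 (adjusted p = 5.3e-05 and 2.71e-06). Wisp1, a further CCN gene, was at -0.45 in 16aOHE and -0.60 in E2 (adjusted p = 2.78e-08 and 2.72e-10). Over the receptor list the median difference was -0.13 in 16aOHE and -0.15 in E2.

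A published signature of 22 YAP and TAZ target genes, which holds 5 of the 10 genes, was all tested. In 16aOHE 9 were lower and none higher, and in E2 8 were lower and 3 higher. Leaving out those 5 genes, 17 remained. Of these 5 were lower and none higher in 16aOHE, where 9.31% of all genes were lower and 10.4% higher. In E2 5 of the 17 were lower and 3 higher, where 9.80% of all genes were lower and 11.4% higher. The median difference of the 17 was -0.02 in 16aOHE and -0.09 in E2, against 0.01 and 0.03 over all genes. Among the lower ones were Nt5e, an ectonucleotidase (-0.84 and -0.58, adjusted p = 0.00115 and 0.0164), the matrix gene Ccdc80 (-0.34 and -0.40, adjusted p = 7.64e-06 and 7.4e-07) and Dock5 (-0.27 and -0.34, adjusted p = 0.000718 and 4.99e-05). Higher in E2 were Foxf2 (0.51, adjusted p = 0.00505), F3 (0.32, adjusted p = 0.0413) and Gadd45a (0.27, adjusted p = 0.0177). F3 and Gadd45a are named here to complete those 3 and were picked after their values were seen. Nt5e and Foxf2 were low. With siCYP1B1 against scrambled siRNA, Nt5e averaged 1.61 against 3.70 CPM in 16aOHE and 1.41 against 2.49 CPM in E2. Foxf2 averaged 3.91 against 2.47 CPM in E2.

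Of 22 tested Hippo kinases and regulators, 4 were higher and 2 lower in 16aOHE, and 2 were higher and 2 lower in E2. Among all genes 19.7% passed in 16aOHE and 21.2% in E2. With median-of-ratios factors 2 were higher in 16aOHE and 1 in E2. The lower ones were Amotl2 and Lats2 in both arms. The higher ones included Nf2, an upstream activator of the cascade (0.22 in 16aOHE and 0.16 in E2, adjusted p = 0.000788 and 0.00911), and Mob1a, a LATS co-activator (0.17 and 0.13, adjusted p = 0.00572 and 0.0238). Of 9 factors, 1 was higher and 2 lower in 16aOHE, and 3 were lower in E2, with the TEAD cofactor Vgll3 at -0.19 and -0.18 (adjusted p = 0.00419 and 0.00425). Tead2 was the third in E2 (-0.12, adjusted p = 0.046), and Vgll2 was higher in 16aOHE (0.50, adjusted p = 0.0375). Vgll2 was low there, averaging 2.17 CPM with siCYP1B1 and 1.24 CPM with scrambled siRNA. Of the thrombospondins, Thbs1 and 1 other gene were tested, and the other passed in no comparison. Although counts moved, no passing gene on these lists changed sign under either scaling tried, by quantiles or by median-of-ratios factors.

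Markers of several cell types, including the labelled endothelial cells, also differed between the siRNA classes. Of 8 tested mesothelial markers, 7 were lower with siCYP1B1 in 16aOHE, 6 in E2 and 7 in vehicle. Among all genes 9.31% were lower in 16aOHE, 9.80% in E2 and 9.12% in vehicle. Their summed level was 3664 to 3820.0 CPM with siCYP1B1 against 4654 to 4943 CPM with scrambled siRNA in 16aOHE, and 3165 to 3266 against 3973 to 4224 CPM in E2. The summed fibroblast and pericyte markers, 9 in the table, were at 4602 to 4799 CPM with siCYP1B1 against 5799.6 to 6189 CPM in 16aOHE, and 3 of 6 tested were lower. Endothelial markers, of which 8 of 13 were in the table, summed to 159 to 164 CPM against 234 to 238 CPM in 16aOHE. Of these, 3 of 5 tested were lower. Cd34 and Flt1 led that sum, averaging 107 and 70.0 CPM over all libraries, whereas Pecam1 and Vwf averaged 0.0482 and 0.0306 CPM. Leukocyte markers (2 tested) and lung epithelial markers (1 tested) passed in no siRNA comparison. Smooth muscle markers summed to 96.9 to 105 CPM against 114 to 129 CPM in 16aOHE, with 2 of 3 tested lower. Smtn led that sum, averaging 90.1 CPM over all libraries. The part of these markers in the results was not tested, and in bulk samples fewer cells of a type and less RNA per cell cannot be told apart.

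**Figure D4:**
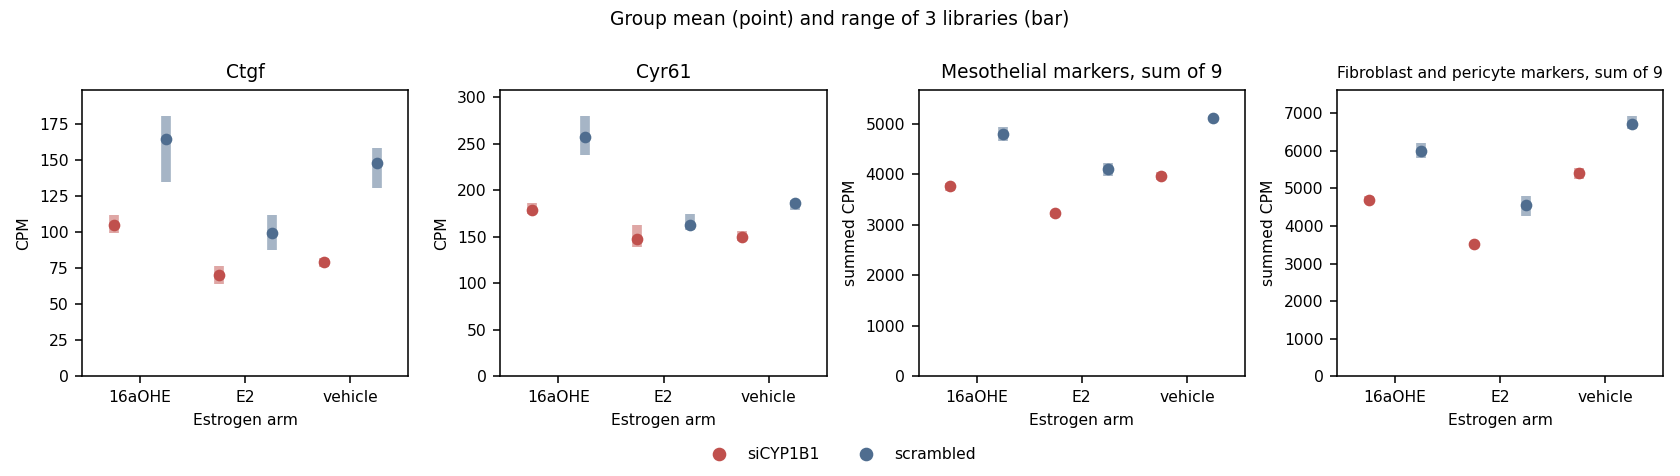
Ctgf and Cyr61 in CPM, and the summed CPM of 9 mesothelial and 9 fibroblast and pericyte markers, as group mean (point) and range of 3 libraries (bar), with siCYP1B1 in red and scrambled siRNA in blue. In 16aOHE the mesothelial sum is 3664 to 3820.0 CPM with siCYP1B1 and 4654 to 4943 CPM with scrambled siRNA, and within each siRNA class both marker sums are highest in vehicle, whereas Cyr61 is highest in 16aOHE.

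A 7-base word, AAAGTCA, that earlier work on these data found more often in the 3′ UTRs of genes lower with siCYP1B1 was looked up in the 10 genes. It stood once in the 3′ UTR of Ctgf and once in that of Amotl1, shown here with 8 bases on each side and the word in capitals (RefSeq places Ctgf on chromosome 10 and Amotl1 on chromosome 9).
Ctgf: gttaatttAAAGTCAtttgtttt
Amotl1: gaggcagcAAAGTCAtggaaatg
The other 8 genes held none. The Ctgf libraries were apart in every arm, and the Amotl1 libraries overlapped in every arm. Over 11462 genes searched, 15.7% held it. The share was 28.0% of the genes lower with siCYP1B1 in 16aOHE and 7.9% of those higher. These shares come from the same libraries that pointed to the word and are no independent evidence.

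16aOHE was next compared with E2, both at 1 uM for 24 hours. Ctgf, Cyr61, Thbs1, Ankrd1 and Amotl2 were higher with 16aOHE than with E2 in both siRNA classes. Yap1, Wwtr1, Lats2, Amotl1 and Nov did not pass in either class. Neither comparison uses the mean of a vehicle group, but the spread of each gene was estimated from all 18 libraries, vehicle libraries included.

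Ctgf, with the library values given above, averaged 105 ± 6.78 CPM with 16aOHE and 70.2 ± 6.08 CPM with E2 in siCYP1B1 cells (SD, n = 3 each). The log2 difference was 0.57 (SE 0.0968, adjusted p = 0.000304). In scrambled cells it averaged 165 ± 26.0 CPM with 16aOHE and 99.3 ± 11.9 CPM with E2 (n = 3 each). The log2 difference there was 0.72 (adjusted p = 2.98e-05), which ranked 31st from the top among 11835 genes. Every 16aOHE library lay above every E2 library in both classes. Among all tested genes, 34% did not overlap between the estrogens in either direction, in each class.

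Cyr61 was at 186, 175 and 175 CPM with 16aOHE in siCYP1B1 cells, against 163, 143 and 139 CPM with E2. The libraries did not overlap, and the log2 difference was 0.27 (SE 0.0593, adjusted p = 0.00288). In scrambled cells it averaged 257 ± 21.1 CPM with 16aOHE and 163 ± 9.75 CPM with E2 (SD, n = 3 each), a log2 difference of 0.66 (adjusted p = 3.22e-07). Thbs1 was higher by 0.53 in siCYP1B1 cells (adjusted p = 4.67e-06) and by 0.37 in scrambled cells (adjusted p = 0.000357). It was at 91.1 to 95.0 CPM with 16aOHE and 61.7 to 67.7 CPM with E2 in siCYP1B1 cells, and at 105 to 109 against 77.9 to 91.3 CPM in scrambled cells.

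Ankrd1 was at 61.2, 68.3 and 66.3 CPM with 16aOHE in siCYP1B1 cells, against 56.5, 53.0 and 51.9 CPM with E2. Among scrambled cells it was at 68.3, 61.9 and 68.7 CPM with 16aOHE, against 52.6, 48.7 and 53.7 CPM with E2. The estrogens did not overlap in either class, and the log2 differences were 0.27 in siCYP1B1 and 0.35 in scrambled cells (adjusted p = 0.000847 and 7.81e-05). Amotl2 was higher by 0.15 in siCYP1B1 cells and 0.14 in scrambled cells (adjusted p = 0.0106 and 0.0135). These are small differences, and both Amotl2 calls were lost with quantile normalization (adjusted p = 0.0533 and 0.0526). The call in siCYP1B1 cells was also lost without siCYP1B1 E2 replicate 2 (0.0594). The call in scrambled cells was lost without scrambled E2 replicate 3 (0.0809) or scrambled 16aOHE replicate 3 (0.0758).

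For Yap1 the difference between the estrogens was 0.01 in each class (95% interval -0.06 to 0.09 in both), so that larger changes lie outside the interval. In siCYP1B1 and scrambled cells, in that order, Wwtr1 was at 0.08 and 0.07 (adjusted p = 0.119 and 0.178), Lats2 at 0.11 and -0.01 (0.0992 and 0.876), and Amotl1 at -0.02 and -0.10 (0.762 and 0.0563). Lats2 passed in siCYP1B1 cells without siCYP1B1 E2 replicate 2 (0.16, 0.0223) or with median-of-ratios factors (0.15, 0.0368), and Wwtr1 with those factors (0.13, 0.0295). Amotl1 passed in scrambled cells with quantile normalization (-0.13, adjusted p = 0.00732) or without scrambled E2 replicate 1 (-0.12, 0.0321). Nov was at 0.13 in siCYP1B1 cells (95% interval -0.16 to 0.42) and 0.18 in scrambled cells (-0.11 to 0.47). In all, 5 of the 10 genes were higher and none lower in each class, where 18.3% of all genes passed in siCYP1B1 cells and 18.4% in scrambled cells. The median log2 difference of the 10 genes was 0.14 in siCYP1B1 and 0.16 in scrambled cells, against -0.04 and -0.03 over all genes.

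**Figure D5:**
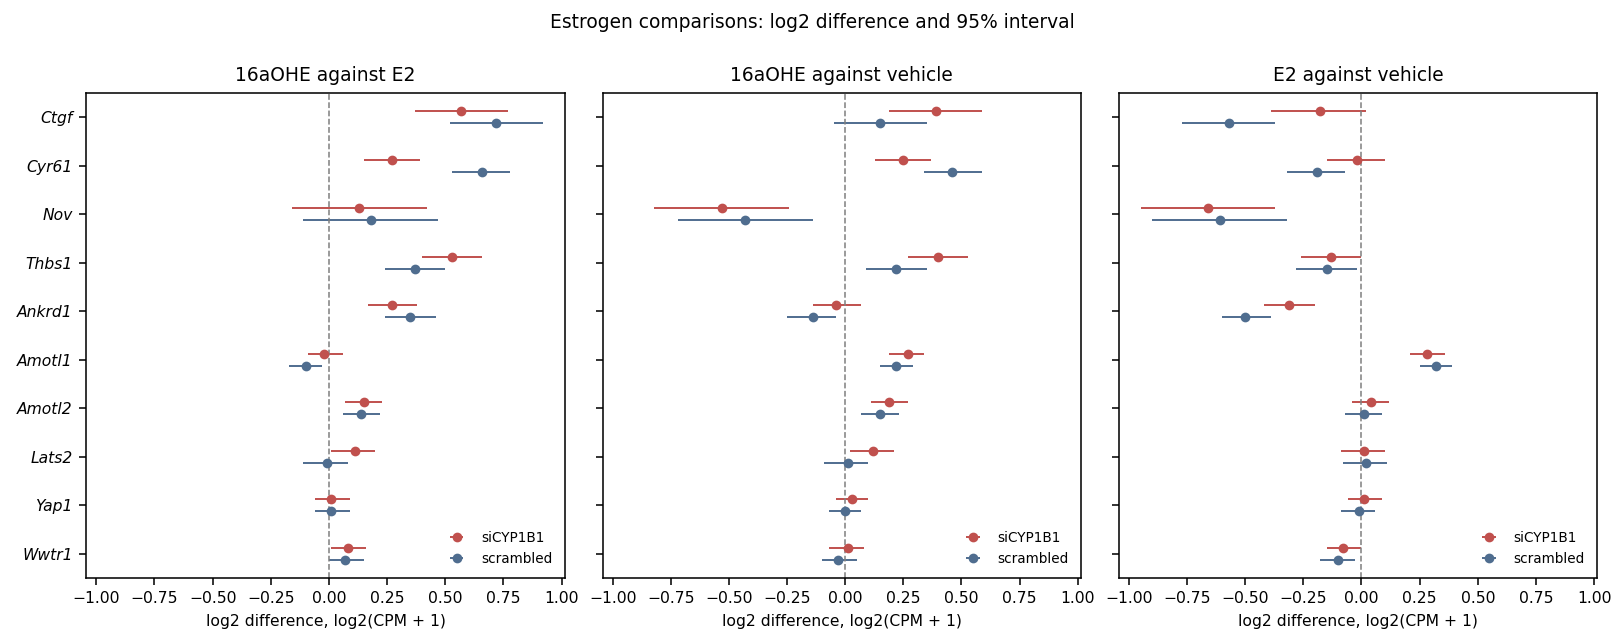
Log2 difference of each gene for 16aOHE against E2, 16aOHE against vehicle and E2 against vehicle, on the log2(CPM + 1) scale with 95% intervals from limma, siCYP1B1 cells in red and scrambled cells in blue (n = 3 libraries per group). Ctgf lies at 0.57 and 0.72 for 16aOHE against E2 in siCYP1B1 and scrambled cells, and Amotl1 is above 0 against vehicle for both estrogens.

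E2 was compared with vehicle. Nov and Ankrd1 were lower and Amotl1 was higher with E2 in both siRNA classes. These comparisons share their vehicle libraries with the siRNA comparison behind the selection, and no p is given for Ctgf. Ctgf was at 70.2 ± 6.08 CPM with E2 and 79.7 ± 3.13 CPM with vehicle in siCYP1B1 cells, and at 99.3 ± 11.9 and 148 ± 14.6 CPM in scrambled cells (SD, n = 3 each). Its log2 differences were -0.18 in siCYP1B1 cells (95% interval -0.39 to 0.02) and -0.57 in scrambled cells (-0.77 to -0.37). The libraries overlapped in siCYP1B1 cells and were apart in scrambled cells.

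Ankrd1 was at 56.5, 53.0 and 51.9 CPM with E2 in siCYP1B1 cells, against 66.6, 67.7 and 66.5 CPM with vehicle. In scrambled cells it was at 52.6, 48.7 and 53.7 CPM with E2, against 72.1, 75.2 and 72.5 CPM with vehicle. It fell by 0.31 on the log2 scale in siCYP1B1 cells and by 0.50 in scrambled cells (adjusted p = 0.000139 and 4.53e-07), with no overlap in either class. Nov was at 4.12, 4.80 and 5.66 CPM with E2 in siCYP1B1 cells, against 7.65, 8.26 and 8.79 CPM with vehicle. In scrambled cells it was at 4.16, 6.48 and 5.40 CPM with E2, against 9.88, 7.70 and 8.28 CPM with vehicle. Nov fell by 0.66 in siCYP1B1 and by 0.61 in scrambled cells (adjusted p = 0.0013 and 0.0023), and no E2 library reached a vehicle library of its class. Amotl1 was at 534, 547 and 542 CPM with E2 in siCYP1B1 cells, against 456, 444 and 433 CPM with vehicle. It rose by 0.28 in siCYP1B1 cells and 0.32 in scrambled cells (adjusted p = 4.59e-06 and 9.66e-07).

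Cyr61 was at -0.02 with E2 in siCYP1B1 cells (adjusted p = 0.816) and fell by 0.19 in scrambled cells (adjusted p = 0.0179). That call was lost without scrambled E2 replicate 2 or 3 or scrambled vehicle replicate 1 or 3 (adjusted p from 0.0576 to 0.0737). Wwtr1 was at -0.08 in siCYP1B1 cells (adjusted p = 0.129), and passed with median-of-ratios factors (0.0378). The decrease of 0.10 in scrambled cells passed (adjusted p = 0.0388). It missed the threshold without scrambled E2 replicate 1 or scrambled vehicle replicate 2 or 3 (0.0974 to 0.177), when only these groups were fitted (0.075) and with an untrended prior (0.0621). Thbs1 was at -0.13 in siCYP1B1 cells and -0.15 in scrambled cells (adjusted p = 0.123 and 0.0837), and passed in scrambled cells without scrambled E2 replicate 2 (-0.22, 0.0166), with quantile normalization (0.0484) or with median-of-ratios factors (0.0398). Amotl2, Lats2 and Yap1 were within 0.04 of 0 in both classes (adjusted p from 0.469 to 0.934). Of the 9 genes other than Ctgf, 1 was higher and 2 lower in siCYP1B1 cells. There 27.5% of all genes passed, 16.7% higher and 10.8% lower, and the 3 of 9 are close to that share. In scrambled cells 1 was higher and 4 lower, where 30.0% passed, 18.6% higher and 11.4% lower. That count of 5 was 3 without scrambled vehicle replicate 3.

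16aOHE was compared with vehicle. Cyr61, Amotl1 and Amotl2 were higher with 16aOHE in both classes, and Thbs1 passed in siCYP1B1 cells. Cyr61 was at 186, 175 and 175 CPM with 16aOHE in siCYP1B1 cells, against 156, 149 and 145 CPM with vehicle. Among scrambled cells it was at 279.9, 238 and 254 CPM with 16aOHE, against 190.0, 179 and 189 CPM with vehicle. It rose by 0.25 in siCYP1B1 and by 0.46 in scrambled cells (adjusted p = 0.0154 and 4.26e-05), with no overlap in either. The call in siCYP1B1 cells was lost without siCYP1B1 vehicle replicate 2 or 3 (0.054 and 0.082) and with an untrended prior (0.0532). Amotl1 rose by 0.27 in siCYP1B1 cells and by 0.22 in scrambled cells (adjusted p = 8.76e-05 and 0.00059). Amotl2 rose by 0.19 and 0.15 (adjusted p = 0.00531 and 0.0318, in the same order). Its call in scrambled cells was lost without scrambled 16aOHE replicate 1 or 3 or scrambled vehicle replicate 1 or 2 (0.0787 to 0.165), with median-of-ratios factors (0.0585) and with an untrended prior (0.0863).

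Thbs1 was at 91.1, 94.6 and 95.0 CPM with 16aOHE in siCYP1B1 cells, against 67.4, 79.4 and 65.8 CPM with vehicle. It rose by 0.40 (adjusted p = 0.00048). The difference in scrambled cells was 0.22 (adjusted p = 0.0538), where the libraries were also apart and it passed when only these groups were fitted (0.00997). Ctgf averaged 105 ± 6.78 CPM with 16aOHE and 79.7 ± 3.13 CPM with vehicle in siCYP1B1 cells, and 165 ± 26.0 and 148 ± 14.6 CPM in scrambled cells (SD, n = 3 each). Its log2 differences were 0.39 in siCYP1B1 cells (95% interval 0.19 to 0.59) and 0.15 in scrambled cells (-0.05 to 0.35), with overlap in scrambled cells. Nov fell by 0.53 in siCYP1B1 cells (adjusted p = 0.0274), a call lost without siCYP1B1 16aOHE replicate 1 or 2 or siCYP1B1 vehicle replicate 2 or 3 (0.0661 to 0.118) or with no filter on low values (0.0503). Its difference in scrambled cells was -0.43 (adjusted p = 0.106), and -0.56 without scrambled 16aOHE replicate 2 (0.0457). Nov was the 1 gene of the 10 that was lower with both estrogens than with vehicle in every library of both classes. Among all tested genes, E2 and vehicle libraries did not overlap, in either direction, for 43.7% in siCYP1B1 and 41.1% in scrambled cells. For 16aOHE and vehicle these shares were 22.4% and 21.1%. The share of genes meeting all of these at once was not counted.

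Yap1, Wwtr1, Lats2 and Ankrd1 did not pass against vehicle with 16aOHE in either class (adjusted p from 0.149 to 0.995). Leaving Ctgf out, 4 genes were higher and 1 lower of 9 in siCYP1B1 cells, where 5.40% of all genes passed. That count of 5 was 3 without siCYP1B1 vehicle replicate 2 and 3 without siCYP1B1 vehicle replicate 3, as Cyr61 and Nov then missed the threshold. In scrambled cells 3 were higher and none lower, where 3.84% passed. E2 and 16aOHE share the vehicle libraries, so both sets of values are given side by side only.

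Whether an estrogen acted differently in siCYP1B1 and scrambled cells was tested as an interaction. None of the 11835 genes passed in limma for 16aOHE (0%) or for E2 (0%), while 596 and 470 had an unadjusted p under 0.05. None of the 9 genes other than Ctgf passed, and 1 of them was under 0.05 unadjusted for each estrogen. For Ctgf the 16aOHE effect in siCYP1B1 cells minus that in scrambled cells was 0.24 (95% interval -0.04 to 0.53) and the E2 effect 0.39 (0.10 to 0.67), given without a p since both use the vehicle libraries. For Cyr61 the 16aOHE effect differed by -0.21 (-0.39 to -0.04, adjusted p = 0.922), and for Ankrd1 the E2 effect by 0.19 (0.03 to 0.34, adjusted p = 0.998). The smaller distance of Ctgf between E2 and vehicle in siCYP1B1 cells than in scrambled cells is therefore a description.

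Among the listed genes, the YAP and TAZ signature without the 5 genes was higher with 16aOHE than with E2 for 6 of 17 in siCYP1B1 cells and 2 of 17 in scrambled cells, and lower for 2 and 1. Over all genes 6.59% were higher and 11.8% lower in siCYP1B1 cells, and 6.78% were higher and 11.6% lower in scrambled cells. The 3 of 17 passing in scrambled cells are close to the 18.4% of all genes that passed there. In the same order, Tgfb2, a TGF-beta ligand, was at 0.38 and 0.26 (adjusted p = 1.04e-05 and 0.000605), and Ccdc80 at 0.25 and 0.19 (0.000377 and 0.00357). The receptor tyrosine kinase Axl was lower in both (-0.11 and -0.14, adjusted p = 0.00915 and 0.00154). Ajuba, a LIM protein that restrains LATS kinases, was higher with 16aOHE than with E2 by 0.30 and 0.37 (adjusted p = 0.000194 and 2.09e-05), and Wisp1 by 0.38 and 0.23 (4.05e-07 and 0.000161).

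With E2 against vehicle, 6 of 22 Hippo genes were higher and none lower in siCYP1B1 cells, and 8 were higher and 1 lower in scrambled cells. The share in siCYP1B1 cells is close to the 27.5% of all genes that passed there, and in scrambled cells 30.0% of all genes passed. The higher ones included Lats1 (0.20 and 0.17, adjusted p = 0.00579 and 0.013) and Limd1 (0.18 and 0.22, 0.00243 and 0.0004), given for siCYP1B1 and then scrambled cells as in the rest of the paragraph. In scrambled cells 5 were higher after quantile normalization, and 3 by median-of-ratios factors. Of the 9 YAP, TAZ and TEAD factors, 2 were higher and 1 lower in siCYP1B1 cells, and 2 were higher and 3 lower in scrambled cells. Vgll3 fell with E2 (-0.24 and -0.26, adjusted p = 0.000296 and 0.000125), and Vgll4 rose (0.25 in both, 0.000598 and 0.00044). Tead4 fell in scrambled cells (-0.36, adjusted p = 0.0066) and was at 0.01 in siCYP1B1 cells (0.955). Tead2 rose with E2 (0.16 and 0.23, adjusted p = 0.00822 and 0.000458) and with 16aOHE (0.34 and 0.29, adjusted p = 4.83e-05 and 0.000257). Of the 17 signature genes outside the list of 10, 5 were higher and 2 lower with E2 in siCYP1B1 cells, and 4 were higher and 2 lower in scrambled cells, beside the 27.5% and 30.0% of all genes passing in either direction. F3 rose with E2 (0.54 and 0.33, adjusted p = 0.00102 and 0.0266), as did Gadd45a (0.49 and 0.32, adjusted p = 9.95e-05 and 0.00357). Ccdc80 fell in both classes (-0.18 and -0.16, adjusted p = 0.003 and 0.00685), Tgfb2 fell in siCYP1B1 cells (-0.13, adjusted p = 0.0454) and Dock5 fell in scrambled cells (-0.15, adjusted p = 0.0248).

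Mesothelial markers also followed the estrogen comparisons. With 16aOHE against E2, 7 of 8 were higher and none lower in each class, and their sum was 3664 to 3820.0 CPM with 16aOHE against 3165 to 3266 CPM with E2 in siCYP1B1 cells, and 4654 to 4943 against 3973 to 4224 CPM in scrambled cells. With E2 against vehicle, 6 of 8 were lower in each class, with vehicle sums of 3887 to 4048 CPM in siCYP1B1 cells and 5074 to 5158 CPM in scrambled cells. With 16aOHE against vehicle 1 was higher and 4 lower in siCYP1B1 cells, and 1 was higher and 3 lower in scrambled cells, where Cyr61 was higher. Of 6 tested fibroblast and pericyte markers, 4 were higher with 16aOHE than with E2 in each class, as were 2 of 5 endothelial markers and 1 of 3 smooth muscle markers. The lung epithelial marker tested was lower with each estrogen than with vehicle in both classes, and no leukocyte marker passed. Over all genes, 6.59% were higher with 16aOHE than with E2 in siCYP1B1 cells and 6.78% in scrambled cells. With E2 against vehicle 10.8% and 11.4% of all genes were lower, in the same order. With 16aOHE against vehicle 2.53% and 1.76% were higher, and 2.86% and 2.08% lower. Again the part of these markers was not tested.

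Within groups, single libraries moved several of the genes together. In scrambled 16aOHE, replicate 2 had the lowest Ctgf (135 CPM), Cyr61 (238 CPM) and Ankrd1 (61.9 CPM) and the highest Nov (7.56 CPM). In siCYP1B1 E2, replicate 1 had the highest Ctgf (76.6 CPM) and Cyr61 (163 CPM) and the lowest Nov (4.12 CPM). Over the 18 libraries, deviations from the group means on the log2 scale correlated between Ctgf and Nov with r = -0.92, between Ctgf and Ankrd1 with r = 0.76, and between Ctgf and Cyr61 with r = 0.64. The deviations of Ctgf correlated with those of Yap1 with r = -0.32 and with those of Thbs1 with r = -0.13. These are descriptions, since both genes of a pair share the depth and preparation of each library. Depth differed between libraries, and scrambled 16aOHE replicate 2 was the deepest. Deviations within a group of 3 sum to 0.

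The genes most like Ctgf over the 18 libraries, by Pearson's r of log2(CPM + 1), were the actin-binding drebrin gene Dbn1 (r = 0.978), Sec31a (0.957), Sh3glb1 (0.945), Ppp2r5b (0.938) and the collagen cross-linking enzyme Lox (0.936). Those most like Cyr61 were the hyaluronan-binding Tnfaip6 (0.925), the NF-kB inhibitor Tnfaip3 (0.922), Csnk1e (0.917), Sec31a (0.904) and Fstl3 (0.887). The libraries fall into 6 groups, and these values include the differences between the groups. Ctgf and Cyr61 had the same order of group means, which ran from scrambled with 16aOHE, scrambled with vehicle, siCYP1B1 with 16aOHE, scrambled with E2 and siCYP1B1 with vehicle down to siCYP1B1 with E2. In that order 3 of 5 neighbouring pairs overlapped for Ctgf and 2 of 5 for Cyr61.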

How the data were processed

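RNA-seq of 18 libraries in 6 groups was deposited by the authors as 1 table of 15288 genes in CPM with an offset of 0.0001 added, as the values show. TopHat2, Partek and mm10 are named in the submitters' processing notes; no version or annotation was found in those notes or in the table. Between 93.6% and 94.4% of values under 200 reads came out as whole reads within 0.1 reads, so no count test was run. Genes averaging at least 1 CPM (11835; 3453 fell below) were fitted as log2(CPM + 1) with limma 3.58.1 (R 4.3.3, trended prior) on all 18 libraries with 1 coefficient per group. The fit gave 11 contrasts, each with Benjamini-Hochberg adjustment over all tested genes at 0.05. It was checked on simulated data. Counting error is largest for Nov, which has the fewest reads of the 10 genes. Tables and figures used Python 3.11.15, pandas 2.3.3 and numpy 2.4.6. Promoter windows and gene coordinates were read from RefSeq GRCm38.p6. Exon lengths and 3′ UTRs came from the GENCODE annotation of GRCm38, with the longest annotated 3′ UTR of each gene searched.

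The 10 genes, the gene lists and the 7-base word were chosen with earlier results of these data known. Named besides the 10 genes were up to 4 genes per list with the largest passing difference, the 5 genes most correlated with Ctgf and with Cyr61, and markers given beside a result. Exceptions are stated where they occur. Other pseudocounts, filters, scalings, fits and left-out libraries were tried.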

Additional observations from a re-analysis of the deposited data

How the results depend on the processing

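None of the 37 passing differences of the 10 genes changed direction under pseudocounts of 0.5 and 5, no filter or one at 5 CPM, quantile normalization, median-of-ratios factors, a fit to the compared groups alone, an untrended prior, or any left-out library. Of 39 differences that did not pass, 15 changed sign under at least 1 of these, none larger than 0.11 on the log2 scale. The pseudocounts and the 5 CPM filter changed no call. Not counting values given without a p, left-out libraries kept a passing call in 190 values and lost it in 32. They gained a call in 5, and the untrended prior lost 5 calls. Values that passed neither before nor after a change are not in these counts. For 16aOHE against vehicle in siCYP1B1 cells, 5 of 9 genes passed, and 3 to 5 with 1 library left out. For siCYP1B1 against scrambled in 16aOHE, 6 of 10 genes passed, and 4 with any 1 of the 6 libraries left out. The cause was not tested. Counts over all genes moved by more than 1.5 times in 5 comparisons. For siCYP1B1 against scrambled in 16aOHE, 2331 genes became 1538 when only those groups were fitted, and 1538 without scrambled 16aOHE replicate 1. For 16aOHE against vehicle in siCYP1B1 cells, 639 became 365 in such a fit, 306 without siCYP1B1 16aOHE replicate 2, and 384 and 316 without siCYP1B1 vehicle replicates 2 and 3. In scrambled cells 454 became 248 and 285 without scrambled 16aOHE replicates 1 and 3, and 282 and 284 without scrambled vehicle replicates 1 and 2; for 16aOHE against E2 in siCYP1B1 cells 2171 became 1446 without siCYP1B1 16aOHE replicate 2. For the interaction of 16aOHE with siCYP1B1, 0 became 12 when only the compared groups were fitted, 1 with the untrended prior, 15 without scrambled E2 replicate 2, 1 without siCYP1B1 vehicle replicate 3 and 2 without siCYP1B1 E2 replicate 3. No paired analysis was possible because the replicate numbers follow accession order and the labels tie no library of one group to a library of another. Nov had the fewest reads, 70 to 291 per library, and the part of depth in its spread was not tested.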
